A study of Mus musculus with 17 samples.

Results

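Non-opioid neuropeptide precursor genes encode secreted proteins that are cut into small signalling peptides. Cartpt, Nts, Tac1, Tac2, Npy, Cck, Crh, Adcyap1, Trh and Grp were chosen by name and read from the 56953 genes of a cortex RNA-seq count table, and all 10 passed the filter that left 23062 genes for testing. RNA came from the prefrontal cortex of 8-month-old mice on a B6C3F1/J background. There were 5 WT mice, 6 hTau mice, which carry a mutant human Tau transgene driven through the whole nervous system by the Prnp promoter and which the paper calls PS19, and 6 CgA-KO/hTau mice, which carry the same transgene and lack chromogranin A (Chga) in the whole body from conception. The count table held no CgA-KO group without the transgene, so the effect of Chga loss alone cannot be read from it. Each genotype held males and females, but the sex was not given beside each library.

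Neuropeptide precursors enter the secretory pathway, are packed with proteases into dense-core granules and leave the neuron when it fires in bursts. Chromogranin A, the protein missing in CgA-KO/hTau mice, is a component of those granules. In cortex, Npy, Tac1, Crh and Cck mark overlapping classes of inhibitory interneurons, and Cck and Adcyap1 are also made by excitatory projection cells. Tac1 is abundant in the direct-pathway projection neurons of the striatum, and Trh is best known from the hypothalamus.

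The deposited counts summed to between 8838334 (WT replicate 4) and 227651681 per library, and the most common of the counts from 1 to 12 was 3 in 13 of the 17 libraries and 1 in the other 4, so that a count is not a fragment. Chga checked the labels, with 163 ± 11.9 CPM (counts per M counts, where M is mega, of the library size scaled by TMM) in WT (SD, n = 5), 168 ± 6.68 in hTau (SD, n = 6) and 0 counts in all 6 CgA-KO/hTau libraries. Prnp was at 748 to 914 CPM in WT and 1974 to 2368 CPM in hTau. In CgA-KO/hTau replicates 1 to 6 it was at 1236, 1316, 1348, 2078.5, 1710 and 1676 CPM. Prnp was called lower in CgA-KO/hTau than in hTau, at a log2 difference of -0.44 ± 0.12 (SE, edgeR quasi-likelihood test, adjusted p = 0.0304), with overlap of the libraries. The cause of this difference and of the spread was not tested. All 10 markers of cortical excitatory neurons were detected in every genotype. Libraries within a genotype did not all look alike. In CgA-KO/hTau replicates 1 to 3, 13.8% to 18.2% of the counts came from mitochondrial genes, against 2.56% to 10.9% in all other libraries. The summed level of 16 markers of striatal projection neurons was 1122 to 3339 CPM in WT, 157 to 213 CPM in hTau, 434 to 1943 CPM in CgA-KO/hTau replicates 1 to 3 and 194 to 221 CPM in CgA-KO/hTau replicates 4 to 6. In addition, hTau replicates 4, 5 and 6 differed from one another by a robust SD of the log2 ratio of 0.0521 to 0.0604, against 0.145 to 0.200 in the other 12 hTau pairs, and CgA-KO/hTau replicates 1 and 3 by 0.0976, against 0.218 to 0.589 in the other 14 pairs. If such libraries share a source, which the labels do not say, the n of 6 is too large.

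Levels were first set side by side between the members, as CPM per kb of exon. Npy and Cck stood far above the other 8 in every genotype. Npy, a peptide that dampens transmitter release and drives feeding, averaged 155 ± 48.0 CPM per kb in WT, 155 ± 16.2 in hTau and 126 ± 61.3 in CgA-KO/hTau (SD, n = 5, 6 and 6). Cck, which encodes cholecystokinin, averaged 99.8 ± 15.3, 158 ± 20.7 and 101 ± 33.6 CPM per kb in the same order, and its libraries overlapped those of Npy within each genotype. The next gene, Tac1 in WT and CgA-KO/hTau and Adcyap1 in hTau, lay apart from these with no overlap between libraries, at 12.3 ± 5.23, 6.99 ± 6.69 and 9.78 ± 0.772 CPM per kb.

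The order of the other 8 was loose in WT, where neighbours all overlapped from Tac1 down to Crh at 3.46 ± 0.434 CPM per kb. In hTau the order had steps. Adcyap1 lay apart from Crh at 4.61 ± 0.652 CPM per kb, Cartpt at 2.49 ± 0.572 lay apart from Trh at 0.392 ± 0.236, and Trh from Nts at 0.0907 ± 0.0532 CPM per kb. Trh stood in the middle of the order in WT, at 7.37 ± 5.24 CPM per kb, and next to last in hTau and last in CgA-KO/hTau, at 0.591 ± 0.325.

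**Figure D1:**
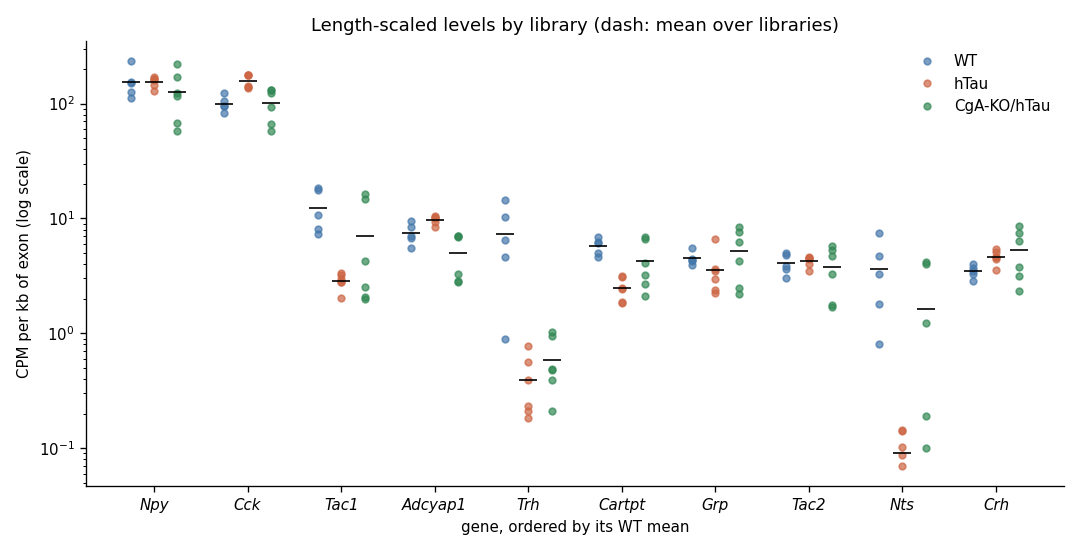
Levels of the 10 precursor genes in CPM per kb of exon on a log axis, with a point for each library coloured by genotype and a dash for the mean; libraries with a level of 0 are in the mean only. Npy and Cck lie above the other 8 in each genotype, and Trh and Nts are lowest in hTau, at 0.392 and 0.0907 CPM per kb.

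Transcription of several neuropeptide genes responds to cyclic AMP through the element TGACGTCA (CRE) or its core TGACG, and the start regions of the members were therefore searched for these letters on both strands. The RefSeq promoter table (GRCm38.p6, 250 bases before to 50 after each start) held 8 of the 10 members, and Crh and Grp were not among them. The core occurred in 6 of these 8 genes and in 20.81% of all 32851 promoters, and the full element in 1 of the 8 and in 1.79% of all. The 8 genes had 9 promoters, so a share of genes is set beside a share of promoters. AP-1, E-box and TATA box letters were searched as well. AP-1 occurred in Nts, the E-box in Tac1 and Cck and the TATA box in Adcyap1, against 5.202%, 7.15% and 13.62% of all promoters. Cartpt held the full element, in which both orientations of the core overlap, and Npy and Tac2 held none of these letters in the window. Each line gives the 11 bases on either side of the match, 5′ to 3′ on the strand of the gene. The element is in capitals, and CGTCA is TGACG read from the other strand. The lines show how the sites differ between genes, and their part in any change of level was not tested.
Cartpt: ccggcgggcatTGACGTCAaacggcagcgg
Nts: ttagggaagatCGTCActttccatcaa
Tac1 (upstream): ccctaaaattgCGTCAtttcgaacaca
Tac1 (near the start): ctctacaggctCGTCAcgcctgagata
Trh: cccggctctgcCGTCAgcgcccctgca
Cck: ctgctggactgCGTCAgcactgggtaa
Adcyap1: gactaggatgcTGACGtcttttactga
The matches began 112 bases before the RefSeq start in Cartpt (chr13:99900777-99900806, minus strand), 166 before in Nts (chr10:102490569-102490595, minus) and 197 and 43 before in Tac1 (chr6:7554853-7554879 and chr6:7555007-7555033, plus). In Trh the match began 96 bases before the start (chr6:92244731-92244757, minus), in Cck 47 before (chr9:121495726-121495752, minus) and in Adcyap1 91 before the first of its 2 starts (chr17:93198915-93198941, plus). The Cartpt site and the Tac1 site near the start lie inside the span that GENCODE M21 gives the gene. A match of letters shows no binding, and no binding was measured.

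WT cortex was compared with hTau cortex to ask which precursor genes differed with the Tau transgene. Cartpt, Nts, Tac1 and Trh were higher in WT, and no member was lower at an adjusted p under 0.05 (edgeR quasi-likelihood test, adjusted over all 23062 genes). Thus 4 of 10 members were called higher, against 3.95% of all genes, and 0 of 10 lower, against 1.95%. Cck was lower at an unadjusted p under 0.05, and DESeq2 and limma each called it. The WT and hTau libraries did not overlap for the 4 called genes, against 4.39% of all genes higher in this way, nor for Cck, against 5.13% lower. The median log2 difference was 0.17 over the members and -0.01 over all genes.

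Trh, the precursor of thyrotropin-releasing hormone (ENSMUSG00000005892, GRCm38 chromosome 6 from 92242061 to 92244650, minus strand), changed with the smallest p of the 10. Its level was 1.24, 14.3, 6.39, 9.01 and 20.1 CPM in WT replicates 1 to 5, and in hTau it ran from 0.255 through a median of 0.429 to 1.07 CPM. All WT libraries lay above all hTau libraries, but WT replicate 1 was only just above hTau replicate 1. The log2 difference was 4.27 ± 0.58 (SE), with an adjusted p of 0.000452.

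Nts encodes neurotensin, a peptide that modulates dopamine signalling (ENSMUSG00000019890, chromosome 10 from 102481756 to 102490486, minus strand). Its level was 1.01, 4.12, 2.23, 5.93 and 9.29 CPM in the 5 WT libraries and 0 to 0.179 CPM in hTau, with a median of 0.118. In hTau the counts were 7, 17, 33, 9, 27 and 0, of which 3 were at or below a floor of 9 counts (3 fragments at 3 counts each), so that the fitted size is poorly fixed. The log2 difference was 5.32 ± 1.09 with a 95% interval from 3.03 to 7.61 and an adjusted p of 0.00695.

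Tac1 encodes substance P and neurokinin A (ENSMUSG00000061762, chromosome 6 from 7554879 to 7565834, plus strand). Values were 24.7, 36.1, 61.9, 27.3 and 59.8 CPM in WT and 6.90 to 11.5 CPM in hTau, with a median of 9.83. WT replicates 3 and 5, the highest in Tac1, were also the highest in striatal markers, at 3339 and 3275 CPM. The log2 difference was 2.11 ± 0.50 with an adjusted p of 0.0181. Without WT replicate 5 the log2 difference was 1.95 and the adjusted p 0.0592, and with the near-identical libraries averaged they were 2.17 and 0.0703.

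Cartpt encodes the CART peptides, which suppress feeding (ENSMUSG00000021647, chromosome 13 from 99898489 to 99901091, minus strand). Its level was 7.90, 5.92, 6.37, 7.87 and 8.73 CPM in WT and 2.35 to 4.06 CPM in hTau, with a median of 3.15. The spread within each genotype was small, and the log2 difference was 1.21 ± 0.27 with an adjusted p of 0.0126. With the near-identical libraries averaged it was 1.16 with an adjusted p of 0.0623.

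Cck (ENSMUSG00000032532, chromosome 9 from 121489824 to 121495694, minus strand) lay the other way. It was at 136, 161, 124, 123 and 107 CPM in WT and at 179 to 233 CPM in hTau, with a median of 207, and the highest WT library stayed below the lowest hTau library. The log2 difference of -0.67 ± 0.20 had an adjusted p of 0.0540, just past the threshold, and it passed in 12 of 30 alternatives.

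The other 5 members overlapped between WT and hTau and did not pass. Npy (ENSMUSG00000029819, chromosome 6 from 49822710 to 49829507) was at 63.0 to 133 CPM in WT, with a median of 84.8, and at 72.1 to 96.3 in hTau, with a median of 91.5. Its log2 difference had an interval from -0.58 to 0.57. Tac2, which encodes neurokinin B (ENSMUSG00000025400, chromosome 10 from 127724478 to 127731768), was at 4.21 to 6.89 CPM in WT and 4.80 to 6.36 in hTau, with an interval from -0.66 to 0.49.

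For Crh, the stress hormone precursor (ENSMUSG00000049796, chromosome 3 from 19693401 to 19695396), the interval was -0.96 to 0.16, and for Adcyap1, the precursor of PACAP (ENSMUSG00000024256, chromosome 17 from 93199017 to 93206537), it was -0.90 to 0.12. Grp, which encodes gastrin-releasing peptide (ENSMUSG00000024517, chromosome 18 from 65872820 to 65886596), had an interval from -0.36 to 1.05. An antisense gene overlaps Grp and the strand setting of the counting was not given, so its reads cannot be assigned with certainty.

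Markers of a neighbouring region were also higher in WT. All 16 striatal markers, Penk among them, were called higher in WT, and Isl1 was at 0 counts in all hTau libraries. The striatal score, a mean of centred log2 levels, was 0.868 to 2.86 in WT and -1.63 to -1.50 in hTau, so that it and the genotype cannot be told apart. With the score as a covariate, Trh stayed called at a log2 difference of 2.91 (adjusted p = 0.0204), Cartpt was at 0.21, Nts at 1.54 and Tac1 at -0.45, none of them called, and Tac2, Npy and Grp were called higher in WT at 1.18, 1.25 and 1.69. In that fit 2416 of 23062 genes were called higher in WT. Trh and Cartpt were also read beside these markers in single libraries. CgA-KO/hTau replicates 1 and 3 had 1941 and 1943 CPM of striatal markers with Trh at 1.32 and 1.42 CPM. WT replicates 1, 2 and 4 had 1181, 1201 and 1122 CPM with Trh at 1.24, 14.3 and 9.01. WT replicates 3 and 5 had 3339 and 3275 CPM with Trh at 6.39 and 20.1. The 18 listed markers of hypothalamus and septum summed to 50.1, 68.9, 70.5, 91.5 and 118 CPM in WT replicates 1 to 5. Trh in the same order was at 1.24, 14.3, 6.39, 9.01 and 20.1 CPM. These markers summed to 43.9 to 52.5 CPM in hTau and 34.1 to 55.9 CPM in CgA-KO/hTau, and WT replicate 1 lay within both ranges. Within WT, Cartpt was at 6.37 and 8.73 CPM in replicates 3 and 5, the highest in striatal markers, and at 5.92 to 7.90 CPM in the other 3. In CgA-KO/hTau, Cartpt was at 8.51, 5.20 and 8.81 CPM in replicates 1 to 3, with 1941, 434 and 1943 CPM of striatal markers. It was at 4.14, 3.43 and 2.69 CPM in replicates 4 to 6, with 194 to 221 CPM of those markers. Of 10 tested markers of hypothalamus and septum 3 were higher in WT, of 12 of amygdala and claustrum 7 were higher and 1 was lower, and of 8 of choroid plexus 5 were higher, with a summed choroid level of 1122 CPM in WT replicate 5, the library with the most Trh and Nts, and 4.46 to 20.3 CPM in the other WT and hTau libraries. The part of these markers in the precursor values was not tested. In bulk tissue, fewer cells of a type and less RNA per cell cannot be told apart.

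**Figure D2:**
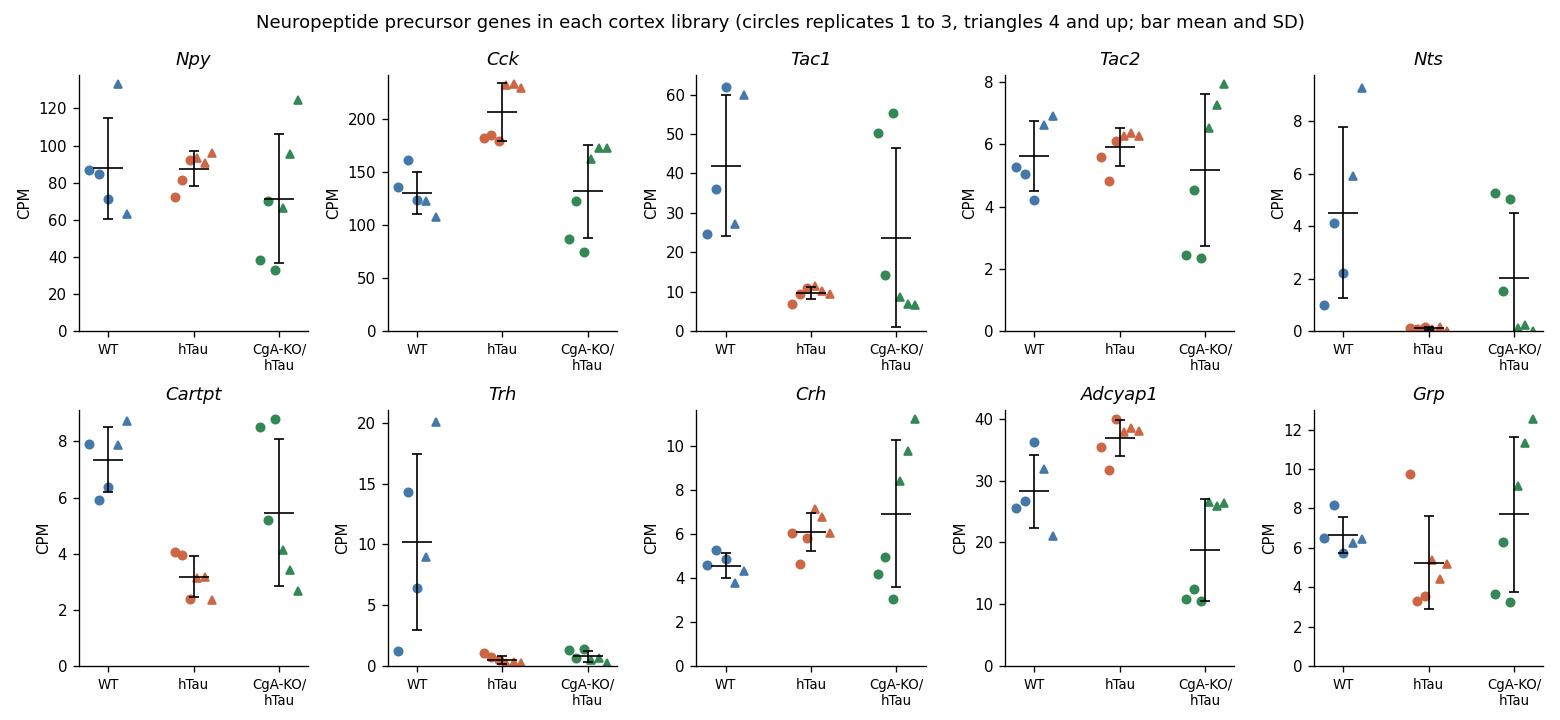
Level of each precursor gene in CPM (linear axis from 0) in every library of WT, hTau and CgA-KO/hTau cortex, with the mean and SD as a bar; circles are replicates 1 to 3 and triangles replicates 4 and up. Cartpt, Nts, Tac1 and Trh in WT lie above all hTau libraries, and the circles and triangles of CgA-KO/hTau separate in 8 of the 10 panels, as they do in 35.1% of all genes tested.

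CgA-KO/hTau cortex was then compared with hTau cortex to ask which precursor genes differed with loss of Chga in the presence of the transgene. Prnp was also lower in this comparison, with the values above, and its part in the member values was not tested. Nts was higher, and Cck and Adcyap1 were lower. That is 1 of 10 members called higher, against 5.5% of all genes, and 2 of 10 lower, against 4.22%. No member was higher without overlap of the libraries, against 2.84% of all genes, and Cck and Adcyap1 were both lower without overlap, against 3.79%. The median log2 difference was 0.37 over the members and 0.03 over all genes. This comparison shares the hTau libraries with the one above. With the near-identical libraries averaged, 0 members passed, against 156 of the 22395 genes tested in that setting.

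Adcyap1 encodes a peptide that acts through cyclic AMP. Its level was 10.8, 12.4, 10.5, 26.6, 25.9 and 26.5 CPM in CgA-KO/hTau replicates 1 to 6 and 31.8 to 40.0 CPM in hTau, with a median of 37.9. All CgA-KO/hTau libraries were below all hTau libraries, with replicates 1 to 3 the lowest, and the log2 difference was -0.98 ± 0.23 with an adjusted p of 0.0171. Without replicates 1 to 3 the log2 difference was -0.50 and the adjusted p 0.0987.

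For Cck the values in CgA-KO/hTau were 86.8, 123, 75.1, 163, 172 and 173 CPM, against 179 to 233 CPM in hTau. The log2 difference was -0.65 ± 0.19 (adjusted p = 0.0371), and -0.30 without replicates 1 to 3 (adjusted p = 0.246). Leaving out any of hTau replicates 2, 4, 5 and 6 or CgA-KO/hTau replicates 1, 2 and 3 alone ended this call.

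Nts rested on the first 3 libraries as well. It was at 5.26, 1.53 and 5.04 CPM in CgA-KO/hTau replicates 1 to 3 and at 0.124, 0.240 and 0 CPM in replicates 4 to 6, the latter from 14, 13 and 0 counts. The replicates 4 to 6 fell in the hTau range or close to it, where the highest library was at 0.179 CPM. The log2 difference was 4.20 ± 1.03 (adjusted p = 0.0197), and 0.22 without replicates 1 to 3 (adjusted p = 0.929).

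Among the other 7 members, Tac1 and Cartpt had the same split. Tac1 was at 50.2, 14.4 and 55.4 CPM in replicates 1 to 3 and 6.76 to 8.66 CPM in replicates 4 to 6. The log2 difference of 1.29 ± 0.48 had an adjusted p of 0.0921, and without replicates 1 to 3 it was -0.39. Cartpt was at 8.51, 5.20 and 8.81 CPM and then at 4.14, 3.43 and 2.69, with a log2 difference of 0.79 ± 0.26 and an adjusted p of 0.0600. Under the threshold in the study's Methods, a log2 difference beyond 0.5 with an unadjusted p under 0.01, Cartpt was counted, which gave 2 members higher and 2 lower, against 9.73% of all genes in either direction. The same threshold gave 4 higher and 1 lower for WT against hTau, against 7.39%.

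Trh was low in both transgenic genotypes. It was at 1.32, 0.657, 1.42, 0.542, 0.682 and 0.289 CPM in CgA-KO/hTau, and these overlapped the hTau libraries, with a 95% interval of the log2 difference from -0.46 to 1.77. The intervals for Tac2, -0.74 to 0.35, for Npy, -0.85 to 0.25, for Crh, -0.34 to 0.71, and for Grp, -0.12 to 1.22, also held 0.

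**Figure D3:**
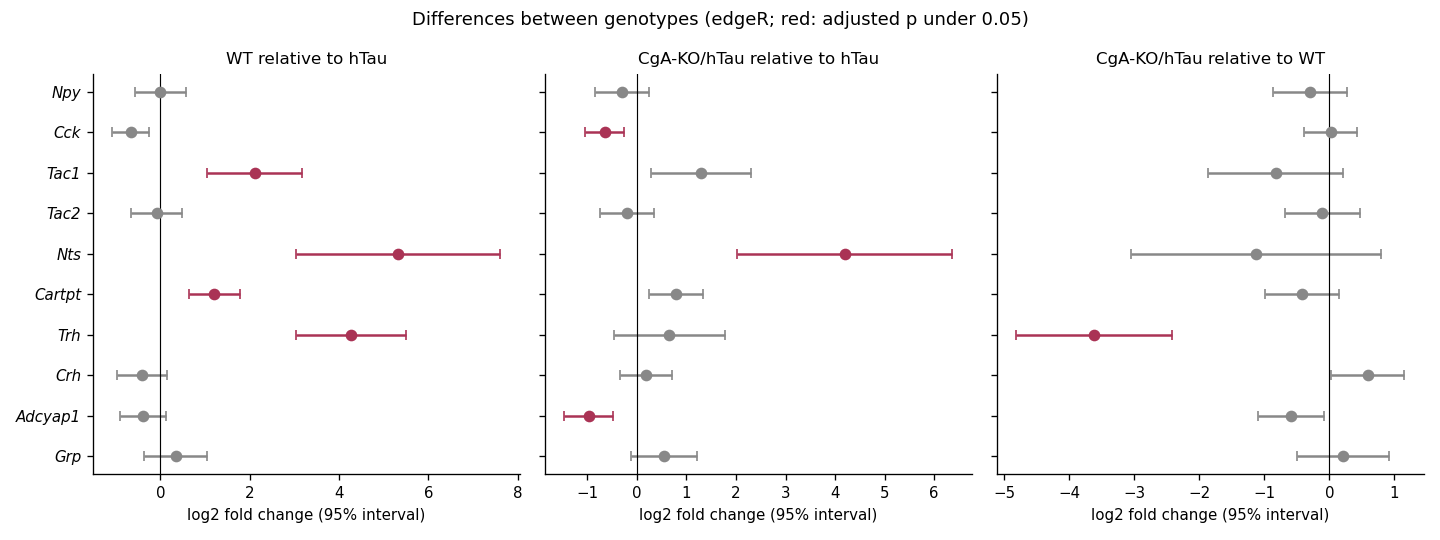
Log2 fold change of each precursor gene with its 95% interval in WT relative to hTau, CgA-KO/hTau relative to hTau and CgA-KO/hTau relative to WT, from edgeR over all 17 libraries; red marks an adjusted p under 0.05. The horizontal scales differ between panels, and Trh at 4.27 in the first and -3.62 in the third has intervals far from 0.

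The CgA-KO/hTau libraries fell into separate ranges for 8 of the 10 members, against 35.1% of all genes tested. Cartpt, Nts and Tac1 were higher in replicates 1 to 3 than in replicates 4 to 6, against 18.2% of all genes, and Tac2, Cck, Crh, Adcyap1 and Grp were lower, against 17%. Crh, for example, was at 4.19, 4.96 and 3.07 CPM and then at 8.41, 9.77 and 11.3 CPM. Grp was at 3.67, 6.30 and 3.23 and then at 9.16, 11.3 and 12.5 CPM. Only Npy and Trh overlapped between the replicates 1 to 3 and 4 to 6. Because the libraries were split after their values were seen, these differences have no test.

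Several other measures split the same libraries. The 12 interneuron markers summed to 824 to 859 CPM in replicates 1 to 3 and 1323 to 1350 CPM in replicates 4 to 6, against 1473 to 1696 CPM in hTau. The 12 immediate early genes, which rise when neurons fire, summed to 419 to 1092 CPM in replicates 1 to 3 and 2740 to 3189 CPM in replicates 4 to 6, against 537 to 1374 CPM in hTau. Striatal markers and the mitochondrial share were higher in replicates 1 to 3, with the values above. Oligodendrocyte markers summed to 2583 to 3049 CPM in replicates 1 to 3 and to 1578 to 1687 CPM in replicates 4 to 6, and astrocyte markers to 4602 to 7019 and 1508 to 3655 CPM. Cortical excitatory markers summed to 4371 to 5585 and then to 3339 to 4036 CPM, and microglial markers to 241 to 267 and then to 158 to 206 CPM. The part of each in the precursor values was not tested. Without replicates 1 to 3, which was chosen after seeing the data, Crh was the one member called against hTau, at a log2 difference of 0.68 with an adjusted p of 0.0392. In that setting 346 of 23618 genes were called.

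**Figure D4:**
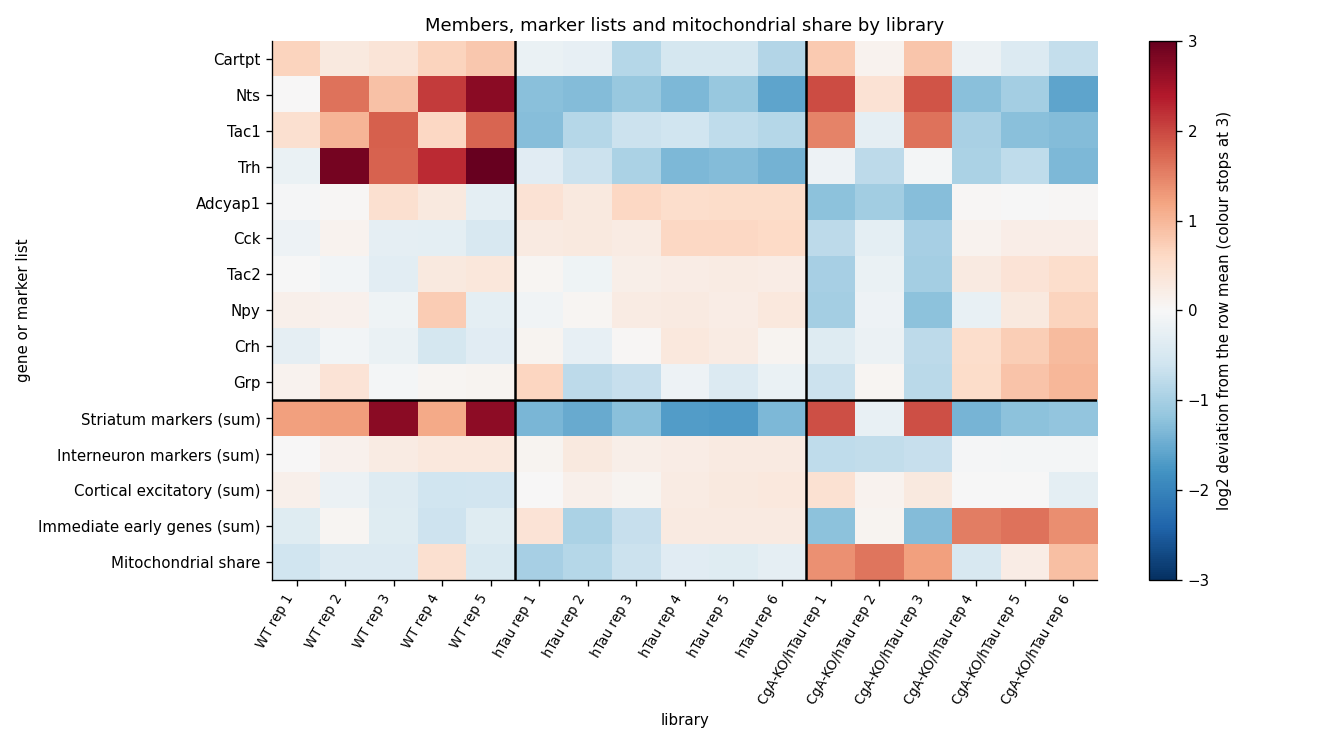
Log2 deviation of each library from the mean of its row for the 10 precursor genes (top), summed marker lists and the mitochondrial share of counts (bottom), with black lines between genotypes and colours that stop at a deviation of 3. In CgA-KO/hTau, replicates 1 and 3 resemble WT in Nts, Tac1 and striatal markers, and replicates 4 to 6 resemble hTau in these rows but have the highest immediate early gene levels.

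CgA-KO/hTau and WT cortex were compared last. Trh was lower in CgA-KO/hTau, and no other member passed. That is 1 of 10 members lower, against 2.89% of all genes, and 0 of 10 higher, against 3.56%, where Crh was higher at an unadjusted p under 0.05 and DESeq2 and limma called none. By the Methods threshold 1 member was counted, against 7.75% of all genes. No member was without overlap in either direction, against 2.06% of all genes higher and 1.54% lower. The median log2 difference was -0.36 over the members and 0.01 over all genes.

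Trh differed by -3.62 ± 0.57 on the log2 scale with an adjusted p of 0.00178, and 4 of 5 WT libraries lay above all CgA-KO/hTau libraries, with WT replicate 1 inside their range at 1.24 CPM. It passed the test in all 30 alternatives run for this comparison and in all 30 run for WT against hTau, including without CgA-KO/hTau replicates 1 to 3. Many of these alternatives left out a single library. None held markers of hypothalamus, septum or choroid plexus as a covariate, so the part of those markers in Trh was not tested. Leaving out CgA-KO/hTau replicates 1 to 3 moved the other members. Without these 3 libraries Cartpt at -1.09, Nts at -5.09 and Tac1 at -2.49 were lower in CgA-KO/hTau than in WT, with adjusted p of 0.0130, 0.0126 and 0.000543, and Crh was higher at 1.09 (adjusted p = 0.00142). Without replicates 1 and 3 only, Cartpt, Tac1, Crh and Trh were called, as were 1234 of 23133 genes in all. With the striatal score as a covariate, Tac2, Npy, Cck, Adcyap1 and Trh were called lower, as were 2799 of 23062 genes in all.

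For each member, the 3 genes whose log2 deviations from the genotype mean were most like its own over the 17 libraries were taken from 15474 genes with a mean of at least 1 CPM. The correlations are descriptions, since all genes share the libraries and the split within CgA-KO/hTau. Tac1 was most like D430019H16Rik (r = 0.978), Fras1 and 4833415N18Rik, and Nts most like Arhgap6 (r = 0.944), Igsf11 and Zfhx3. Crh was most like Dusp1 (r = 0.945), and Grp most like Egr1 (r = 0.944), Pcsk1 and Cckbr. Dusp1 and Egr1 are genes that neurons switch on with activity. Over the 11 WT and hTau libraries alone, r was 0.902 for Tac1 with D430019H16Rik, 0.838 for Nts with Arhgap6, 0.834 for Crh with Dusp1 and 0.849 for Grp with Egr1.

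Trh had the lowest first correlation of the 10, and Cartpt the next. The genes nearest to Trh were Suv39h1 (r = 0.883), Tacr3, the neurokinin B receptor, and ENSMUSG00000120442, and those of Cartpt were 4930429F24Rik (r = 0.922), Sfrp5 and C030013G03Rik. Tac2 was nearest to Lsm12 (r = 0.960), Bcorl1 and Nol10, and Npy to Zbtb1 (r = 0.975), Dnajc21 and Septin6. For Cck they were Bhlhe40 (r = 0.954), Inka2 and Trib1, and for Adcyap1 Ccbe1 (r = 0.963), 1110002E22Rik and Usp36. No member was named for its likeness with another, since members were left out of the search.

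Receptors of the member peptides were followed in a list of 22 genes, of which 19 were tested. In WT against hTau 6 were higher and 0 lower, with 3 lower at an unadjusted p under 0.05, 1 lower by DESeq2 and 2 lower by limma. Trhr, the receptor of thyrotropin-releasing hormone, was at 15.3 ± 9.99 CPM in WT and 2.08 ± 0.686 in hTau, a log2 difference of 2.88 ± 0.36 (adjusted p = 0.000264). Tacr1, the substance P receptor, differed by 3.51 ± 0.51 and Npy2r, an NPY receptor, by 2.13 ± 0.32. The other receptors called were Tacr3, Crhr2 and Vipr2. The part of the striatal and choroid markers in these values was not tested.

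In CgA-KO/hTau against hTau 2 of 19 were higher and 1 was lower in edgeR. The balance lay the other way by the other counts, with the same 2 higher but 6 lower at an unadjusted p under 0.05, 5 lower by DESeq2 and 5 lower by limma, Sort1, Npy5r and Crhr1 in each of them. Tacr1 was higher by 1.78 ± 0.47 and Trhr by 1.19 ± 0.34, while Crhbp, which binds and holds back Crh and is counted with the receptors, was lower by -0.97 ± 0.14. Without replicates 1 to 3, Crhbp alone was called. Crhbp was at 17.3 ± 3.17 CPM in CgA-KO/hTau, 33.9 ± 3.53 in hTau and 29.8 ± 6.23 in WT. Against WT, 7 of 19 were lower in CgA-KO/hTau, 4 of them by limma. Those with the smallest p were Crhbp at -0.78 ± 0.14, the smallest change of the 7, Npy2r at -1.69 ± 0.31 and Tacr3 at -1.76 ± 0.35. There, 0 were higher in edgeR, also at an unadjusted p under 0.05, in DESeq2 and in limma. Without replicates 1 to 3 that became 3 lower and 2 higher.

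Enzymes that cut, trim or break down peptides were followed in a list of 19, all tested. Mme, which encodes neprilysin, a protease that degrades several of these peptides, was higher in WT than in hTau (29.3 ± 11.4 and 11.9 ± 3.96 CPM, adjusted p = 0.0324), as was Ece2 by 0.71 ± 0.20 on the log2 scale. Dpp4, which removes the first residues of Npy and other peptides, was lower by -1.14 ± 0.31. These were 2 enzymes higher and 1 lower, against 4 and 3 by limma. Thop1, a peptidase that cuts neurotensin, was the one enzyme called in CgA-KO/hTau against hTau, at -0.47 ± 0.14. There, 5 were lower at an unadjusted p under 0.05, 2 by DESeq2 (Prep and Thop1) and 5 by limma (Pam, Scg5, Pcsk2, Prep and Thop1), and 0 were higher in edgeR and DESeq2, with Cpe higher at an unadjusted p under 0.05 and by limma. Thop1 was not called without replicates 1 to 3. Between CgA-KO/hTau and WT 0 enzymes passed in edgeR, with 6 at an unadjusted p under 0.05, 4 called by DESeq2 and 4 by limma, and without replicates 1 to 3 edgeR called 2 higher and 2 lower.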

How the data were processed

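Polyadenylated RNA of prefrontal cortex was sequenced with paired ends from 17 mice. According to the Methods and the processing notes, the authors trimmed reads with Trimmomatic 0.39, aligned them to mm10 with STAR 2.7.10b, quantified them with StringTie 1.3.6 and converted the result with prepDE. What they deposited is a table of unscaled integer counts for each gene. This conversion uses an assumed read length. The most common of the counts from 1 to 12 was 3 in 13 libraries and 1 in 4, so that counts were taken as about 3 per fragment, which was not tested further, and low counts may look more precise than they are. The annotation release and the strand setting are not given in the sources used here.

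The unscaled counts were tested in R 4.3.3 with edgeR 4.0.16 (TMM, filterByExpr by genotype, quasi-likelihood F test, 1 mean per genotype over all 17 libraries, Benjamini-Hochberg adjustment over 23062 genes, calls at an adjusted p under 0.05, no covariate). Values are TMM-scaled CPM. On simulated counts of WT against hTau, the test recovered 70 of 100 genes changed by a log2 fold of 1 and 92 of 100 changed by a log2 fold of 2, with 11 false calls among 23062 genes. Those counts were drawn independently around 1 mean per gene in each genotype. They held neither near-identical libraries nor a split within CgA-KO/hTau, so these rates need not hold in the real data. The common biological coefficient of variation was 0.316. Intervals are at 95%, and the floor of 3 fragments, or 9 counts, covers counting error only. Nothing beyond the labels shows how the mice were housed or processed together, so p-values measure the spread between these libraries.

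Coordinates and exon lengths are from GENCODE M21 (GRCm38), in which 52029 of 56953 genes matched by identifier. All members are named, with Chga and Prnp as checks, up to 3 called genes per list, comparison and direction from the receptor, processing, opioid and other precursor lists, and the 3 nearest genes of each member by Pearson r of within-genotype deviations of log2(CPM + 0.5). Markers of 10 cell types or regions and immediate early genes were summed per library. Members, lists and alternatives were chosen with earlier results of these data known. The alternatives were DESeq2 1.42.0, limma 3.58.1 voom with quality weights, DESeq2 size factors, other filters, 2 genotypes only, a robust fit, a replicate block, covariates (striatal score, Ddx3y), averaged near-identical libraries, the threshold of the Methods and each library left out. Leaving out CgA-KO/hTau replicates 1 and 3, or 1 to 3, was added after seeing the data. Figures were drawn with matplotlib 3.10.9. Some of the genes most like a member are not reported here.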

Additional observations from a re-analysis of the deposited data

Results flagged for a closer look

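Of 30 groups of 5 or 6 libraries, 1 for each member and genotype, 1 held a library far from the others. Grp was at 9.74 CPM in hTau replicate 1 and at 3.30 to 5.38 CPM in the other 5 hTau libraries, and the gap to the nearest of them was 0.677 of the whole range. Chance gives such a gap in about 1 in 20 groups. Without hTau replicate 1 the log2 difference of Grp between WT and hTau was 0.61 and was not called.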

How the results depend on the processing

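The WT against hTau count of 4 called members was 3 to 5 with a library left out and fell to 2 with near-identical libraries averaged. Over all genes, 1361 of 23062 were called in this comparison, and 430 of 22395 with those libraries averaged. A library left out gave 632 to 1658 calls. The CgA-KO/hTau against hTau count of 3 was 2 to 5 with a library left out (5 without CgA-KO/hTau replicate 4 or 5), 5 by limma, 0 with near-identical libraries averaged, 0 without CgA-KO/hTau replicates 1 and 3 and 1 without replicates 1 to 3. Calls over all genes there were 2242 of 23062, 5229 by limma and 1019 to 3822 with a library left out. They fell to 156 of 22395 with averaged libraries, 718 of 23133 without replicates 1 and 3 and 346 of 23618 without replicates 1 to 3. The CgA-KO/hTau against WT count of 1 was 1 with any library left out, 2 by limma, 5 with the striatal covariate, 4 without replicates 1 and 3 and 5 without replicates 1 to 3. Over all genes the calls were 1489 of 23062, 627 to 2099 with a library left out, 2458 by limma and 5106 with the striatal covariate. They were 1234 of 23133 without replicates 1 and 3 and 982 of 23618 without replicates 1 to 3. The causes of these shifts were not tested. The r of 16 same-numbered pairs ran from -0.232 to 0.450, the latter for WT and CgA-KO/hTau replicates 3, with 3 pairs over 0.1. Pairs with different numbers were not compared. The labels do not say whether libraries with the same number share more than that number, and the main test did not pair them. With a replicate block the counts were 3, 1 and 1 in the order above, and 660, 654 and 614 of 23062 over all genes.

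Log2 differences that changed sign were mostly near 0. For WT against hTau, Npy was at 0.0064 with DESeq2, 0.0042 with its size factors, 0.022 with at least 10 counts in every library, 0.0012 with only 2 genotypes, 0.083 with the replicate block, 0.030 with the Ddx3y covariate, 0.048 with averaged libraries and -0.20 to 0.099 with a library left out, and Tac2 was at -0.18 to 0.010 with a library left out. With the striatal covariate Tac1 was at -0.45, Tac2 at 1.18, Npy at 1.25, Cck at 0.21, Crh at 0.72 and Adcyap1 at 0.61.

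For CgA-KO/hTau against hTau, the striatal covariate gave -0.43 for Tac1, 0.23 for Tac2, 0.17 for Npy and -0.11 for Trh. Leaving out replicates 1 and 3 gave -0.090 for Tac1, 0.14 for Tac2 and 0.014 for Npy, and leaving out replicates 1 to 3 gave -0.39 for Tac1, 0.28 for Tac2, 0.11 for Npy and -0.034 for Trh. Averaged libraries gave 0.0084 for Tac2, limma -0.21 for Crh, and single libraries left out -0.0027 to 0.35 for Crh.

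For CgA-KO/hTau against WT, Cck was at -0.16 with limma, -0.0056 with no filter, -0.11 with the replicate block, -0.52 with the striatal covariate, -0.079 with the Ddx3y covariate and -0.072 to 0.14 with a library left out. The striatal covariate gave 0.022 for Tac1, -0.16 for Crh and -0.69 for Grp, and limma -0.19 for Grp. Tac2 was at 0.037 with averaged libraries, 0.24 without replicates 1 and 3, 0.38 without replicates 1 to 3 and -0.27 to 0.046 with a library left out, and Npy was at 0.029 without replicates 1 and 3 and 0.13 without replicates 1 to 3. At least 10 counts in every library left no value for Nts, whose low counts in hTau limit its size.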

Other observations

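Other precursor genes were read beside the members. Of 36 further non-opioid precursors 14 were tested. In WT against hTau 0 passed in edgeR, with 6 at an unadjusted p under 0.05, 2 called by DESeq2 and 5 by limma, and 1 was called without CgA-KO/hTau replicates 1 to 3. In CgA-KO/hTau against hTau, Nmb, which encodes neuromedin B, was higher by 1.97 ± 0.50 on the log2 scale (1.52 ± 0.527 and 0.401 ± 0.250 CPM), Calca, which encodes calcitonin gene-related peptide, was higher by 1.39 ± 0.43 at under 1 CPM in each genotype, and Nppc, a natriuretic peptide precursor, was lower by -0.71 ± 0.15. None of the 3 was called without CgA-KO/hTau replicates 1 to 3. Against WT, Cort, which encodes cortistatin, was higher in CgA-KO/hTau by 0.73 ± 0.18 (4.83 ± 0.943 and 2.92 ± 0.770 CPM), also without replicates 1 to 3, while Sst, the somatostatin gene, was lower by -0.58 ± 0.16 and Nppc by -0.55 ± 0.16, neither of them without those libraries.

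Of the 4 opioid precursors, Penk, which encodes the enkephalins and is itself 1 of the 16 striatal markers, was at 308 to 819 CPM in WT and 22.7 to 41.1 CPM in hTau, a log2 difference of 3.99 ± 0.56 with an adjusted p of 0.000537 in edgeR. In CgA-KO/hTau it was higher than in hTau by 2.10 ± 0.51, but not called without replicates 1 to 3, and lower than in WT by -1.89 ± 0.52. Pdyn, which encodes the dynorphins, was lower in CgA-KO/hTau than in WT by -0.90 ± 0.18, and Pomc, the melanocortin and endorphin precursor, by -3.59 ± 0.94. Penk and Pdyn stayed called against WT by limma and without CgA-KO/hTau replicates 1 and 3 or 1 to 3, and Pomc was not called in any of these. Pomc averaged 4.55 ± 6.77 CPM over the 5 WT libraries, an SD above the mean.

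The marker lists gave these counts of called genes in edgeR. Against hTau, WT had 2 of 10 cortical excitatory markers lower, 2 of 12 interneuron markers higher and 1 lower, 2 of 7 tested thalamic markers higher and 1 lower, and 1 of 8 astrocyte markers lower, besides the lists of neighbouring regions given above. CgA-KO/hTau had 13 of 16 striatal, 5 of 12 amygdala and claustrum, 2 of 10 tested hypothalamic and septal, 1 thalamic, 1 choroid, 2 astrocyte and 1 oligodendrocyte markers higher than hTau, and 5 interneuron, 1 cortical excitatory and 1 amygdala and claustrum markers lower. Without CgA-KO/hTau replicates 1 to 3, all of these counts against hTau were 0 except 2 amygdala and claustrum markers higher.

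Against WT, CgA-KO/hTau had 2 astrocyte and 2 oligodendrocyte markers higher, and 5 interneuron, 4 choroid, 3 hypothalamic and septal, 3 amygdala and claustrum, 1 striatal and 1 thalamic markers lower. Without replicates 1 to 3 these became 0 and 1 higher, and 2, 1, 3, 2, 16 and 2 lower, and 1 cortical excitatory marker was higher. The 3 hypothalamic and septal markers were Pomc, also counted as an opioid precursor, Dlk1 and Otp with all libraries. They were Lhx8, Nkx2-1 and Dlk1 without replicates 1 to 3. Microglial markers gave 0 of 8 calls in edgeR and DESeq2 in each comparison, also without those libraries, with 0, 2 and 1 at an unadjusted p under 0.05 and 0, 2 and 1 by limma. The 12 immediate early genes gave 0 calls in edgeR and limma over all libraries, with 0, 3 and 5 at an unadjusted p under 0.05 and 0, 1 and 1 by DESeq2. In CgA-KO/hTau, 4 of the 12 were called higher than in hTau and 7 higher than in WT without replicates 1 and 3, and 7 and 12 without replicates 1 to 3, where 1 was also lower in WT than in hTau.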
